A study of Mus musculus with 2 samples.

Results

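The transcripts of 10 genes of the major histocompatibility complex (MHC) class I pathway were followed through droplet single-cell RNA sequencing of mouse pluripotent cells. They are 10 of the 32286 features counted in both libraries, taken by symbol: the light chain B2m, the heavy chains H2-K1, H2-D1 and H2-T23, the peptide transporter Tap1 and Tap2, the transporter-bound chaperone Tapbp, the immunoproteasome subunits Psmb8 and Psmb9, and the transcriptional activator Nlrc5. All 10 had a single row in the tables, and none was chosen by a measured value.

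MHC class I molecules show peptides from the inside of a cell to cytotoxic T cells and natural killer cells. Proteasomes cut cytosolic proteins into peptides, and under interferon the subunits Psmb8 and Psmb9 replace constitutive catalytic subunits to form the immunoproteasome. The Tap1-Tap2 dimer carries the peptides into the endoplasmic reticulum, tapasin (Tapbp) holds the transporter next to empty heavy chains, and B2m joins the heavy chain to complete the complex at the cell surface. Pluripotent cells are known for low class I levels, while fibroblasts carry class I at the surface. Nlrc5 acts with factors bound to a conserved module of S, X and Y boxes upstream of class I genes, and interferon acts on many of these genes through Irf1.

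Both libraries held a mixture of wild-type (WT) cells with the ROSA mT/mG reporter, which transcribe tdTomato, and Cnot8 knockout (KO) cells. The study's methods state that equal numbers of both were mixed. The labels give ICR as the strain and wild type as the genotype of both, although their titles name both genotypes. One library was of embryonic stem cells (ESCs) at 0 h in serum/LIF medium on feeders, which in the study's methods are mitomycin-treated ICR embryonic fibroblasts. The other was of epiblast-like cells after 48 h (48h-EpiLCs) on Matrigel in N2B27 with activin A, bFGF and KSR. Cnot8 is a subunit of Ccr4-Not that shortens poly(A) tails. The methods describe the KO line as picked from outgrowths of blastocysts of heterozygous parents, so that each genotype may stand for 1 line. Each stage had 1 library, so no test was possible, and stage, culture and library cannot be told apart. The intervals below (95%, exact) cover counting error only.

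Cells were placed in classes one at a time. WT-line cells had at least 1 tdTomato UMI (unique molecular identifier, a counted transcript) and 0 UMIs of the Y-linked Ddx3y, Eif2s3y, Kdm5d and Uty. KO-line cells had no tdTomato and at least 2 of those UMIs. Col1a2-high cells, the feeder class, had at least 5 UMIs of the collagen gene Col1a2 and were taken out first. This gave 434 WT-line and 2944 KO-line ESCs, 89 Col1a2-high cells of the ESC library, and 368 WT-line and 2977 KO-line 48h-EpiLCs. No cell of the 48h-EpiLC library reached the Col1a2 threshold. Of the kept cells, 68.6% of 11054 ESCs and 64.4% of 9400 48h-EpiLCs met no class. Although equal numbers were mixed, tdTomato was seen in only 517 kept ESCs (4.68%) and 452 kept 48h-EpiLCs (4.81%). Of these, 82 and 84 also had Y-linked UMIs. The reason was not tested, and the WT-line classes may not stand for all WT cells. The median depth was 13150, 13324, 18827, 15598 and 17628 UMIs in the order in which the classes are named. The lines differ in genotype, in Y-linked transcripts and possibly in more, which cannot be told apart. The libraries shared 41 barcodes, 26 of them of kept cells.

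Cnot8, the targeted gene, was not lower in KO-line cells. Its level in UMIs per 1000000 UMIs of the class (CPM) was 72.5 CPM (70.0 to 75.1) in KO-line against 42.9 CPM (37.9 to 48.5) in WT-line ESCs, and 62.6 CPM (60.6 to 64.6) against 49.7 CPM (44.3 to 55.5) in 48h-EpiLCs. A 3′ count does not read the edited exon and cannot check the genotype, so the classes are called lines. Among markers of other cells, the 7 primitive endoderm genes summed to 19.3 CPM in WT-line and 42.5 CPM in KO-line ESCs, with 4 of 7 at least 2-fold higher in KO-line cells. In 48h-EpiLCs they summed to 6.59 and 10.2 CPM, with Sox7 at 0 in WT-line cells. The 10 fibroblast markers summed to 557 CPM in WT-line and 684 CPM in KO-line ESCs, to 215 CPM in WT-line and 192 CPM in KO-line 48h-EpiLCs and to 17706 CPM in Col1a2-high cells. Lum was at 0 in both WT-line classes, and Col3a1 and Postn in WT-line 48h-EpiLCs. The 6 two-cell-stage markers summed to at most 8.82 CPM in any class, and all were at 0 in Col1a2-high cells. Of 6 blood cell markers only Cd68, a lysosomal protein, exceeded 5 CPM in any class, and Ptprc, the pan-leukocyte marker, stood between 0 and 1.15 CPM. The 7 pluripotency markers, among them Pou5f1 and Sox2, were all above 5 CPM in each of the 5 classes.

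The members lie in a few places of the genome (GRCm38, GENCODE M21). B2m is on chromosome 2, at chr2:122147686-122153083 on the plus strand, and overlaps Patl2 on the other strand. Nlrc5 is at chr8:94434356-94527272. The other 8 are in the MHC on chromosome 17: Tapbp at chr17:33915899-33929292, H2-K1 at chr17:33996017-34000347 on the minus strand, Psmb9 at chr17:34181987-34187764 on the minus strand, Tap1 at chr17:34187553-34197225, Psmb8 at chr17:34197721-34201454, Tap2 at chr17:34203527-34216321, H2-D1 at chr17:35262730-35267499 and H2-T23 at chr17:36029773-36032855 on the minus strand. Tap1 and Psmb9 are transcribed away from each other and overlap at their 5′ ends. H2-T23, Tap2, Tapbp and Psmb8 each overlap an annotated antisense gene. Tapbp also overlaps the protein-coding Zbtb22 on the same strand. Nlrc5 overlaps 9330175E14Rik on the opposite strand and Mir7072 on the same strand. Strand use in counting is not given in the sources used here, so reads of pairs on opposite strands may be mixed. Strand cannot separate the pairs on the same strand.

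Promoter windows (RefSeq, GRCm38.p6, from 250 bases before to 50 after the start of transcription) were found for 8 of the 10 members, with a second and overlapping one for H2-K1. The first 3 printed here are those of B2m, H2-K1 and H2-D1, in which the X2 box (TGACG) was followed by the Y box (ATTGG) at the spacing searched for. The capitals mark those boxes, the interferon-response-like string GAAANNGAAA and GGGGATTCCCC, which is the class I enhancer A string. The windows are chr2:122147437-122147736 (plus strand) for B2m, chr17:34000298-34000597 (minus strand) for H2-K1 and chr17:35262844-35263143 (plus strand) for H2-D1.
B2m: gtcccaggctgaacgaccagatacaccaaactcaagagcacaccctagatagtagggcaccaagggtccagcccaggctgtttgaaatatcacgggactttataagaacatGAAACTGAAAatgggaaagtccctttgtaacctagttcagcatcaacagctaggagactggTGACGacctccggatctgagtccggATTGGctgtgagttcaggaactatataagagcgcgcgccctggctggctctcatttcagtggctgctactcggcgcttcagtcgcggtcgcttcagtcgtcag
H2-K1: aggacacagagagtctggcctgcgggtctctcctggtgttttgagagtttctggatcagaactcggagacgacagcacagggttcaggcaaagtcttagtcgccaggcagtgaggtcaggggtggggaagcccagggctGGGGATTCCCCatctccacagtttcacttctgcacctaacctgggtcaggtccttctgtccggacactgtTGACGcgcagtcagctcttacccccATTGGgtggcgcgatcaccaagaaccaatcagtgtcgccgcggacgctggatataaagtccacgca
H2-D1: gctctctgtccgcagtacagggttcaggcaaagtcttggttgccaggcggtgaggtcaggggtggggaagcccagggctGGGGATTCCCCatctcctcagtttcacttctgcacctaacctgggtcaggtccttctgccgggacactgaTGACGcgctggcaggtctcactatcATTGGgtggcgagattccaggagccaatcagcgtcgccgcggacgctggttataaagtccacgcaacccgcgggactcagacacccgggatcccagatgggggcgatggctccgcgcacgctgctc

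In all 3 windows exactly 20 bases lay between the boxes. An X2 box followed on the same strand by a Y box after 10 to 30 bases, searched on both strands, was present in 0.743% of 32851 promoter windows and in no window of the other 5 members with one. Alone, the X2 box was present in 20.8% and the Y box in 37.4% of windows. GAAANNGAAA, in 3.44% of windows, was present in B2m and, on the other strand, in H2-T23. Other forms of an interferon-response string were not searched for, so the remaining windows may hold them. GGGANNTCCC, a string like an NF-kB site, was in 0.664% of windows and in none of the members'. Other forms of such a site are not covered by this pattern, which does not match GGGGATTCCCC. GGGGATTCCCC was looked for after the windows had been seen, and was in H2-K1 and H2-D1 and in 0.0304% of all windows. The windows of Tap1 and Psmb9 shared 275 bases, and that of Tap1 (chr17:34187306-34187605, plus strand) is printed because the same sequence, read from the other strand, lies before Psmb9.
Tap1: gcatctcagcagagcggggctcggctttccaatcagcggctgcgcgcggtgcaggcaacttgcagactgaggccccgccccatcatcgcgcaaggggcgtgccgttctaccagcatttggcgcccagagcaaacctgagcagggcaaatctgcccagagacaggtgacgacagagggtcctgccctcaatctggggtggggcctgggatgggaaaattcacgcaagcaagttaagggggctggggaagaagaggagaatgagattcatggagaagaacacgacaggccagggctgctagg
These are matches of letters, and no binding was measured here.

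All 10 members had their lowest value in WT-line ESCs. Of the 10, 7 had their highest value in KO-line 48h-EpiLCs, and B2m, H2-D1 and Nlrc5 had theirs in Col1a2-high cells. The 10 members together made up 45.2 CPM in WT-line ESCs, 101 CPM in KO-line ESCs, 142 CPM in WT-line 48h-EpiLCs, 239 CPM in KO-line 48h-EpiLCs and 572 CPM in Col1a2-high cells. Of the 993 member UMIs of Col1a2-high cells 513 were of B2m. A 3′ count is not divided by length, so values are compared for 1 gene between classes and not between genes.

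**Figure D1:**
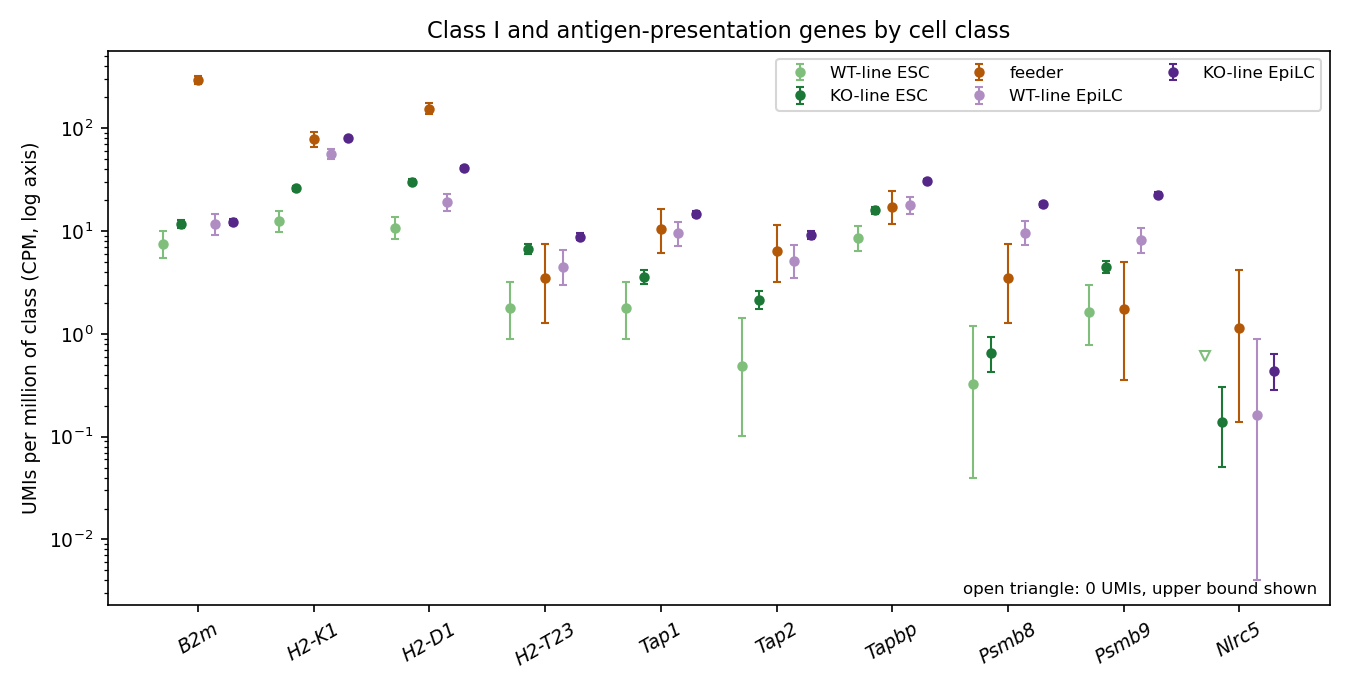
Level of each member in the 5 cell classes, in CPM on a log axis, with exact Poisson intervals (95%); the open triangle is the upper bound of a class with 0 UMIs. B2m stands at 296 CPM in the feeder class and between 7.51 and 12.2 CPM elsewhere, and Psmb8 and Psmb9 are highest in KO-line 48h-EpiLCs.

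B2m, the invariant light chain, separated the feeder class from all pluripotent classes and differed little among the latter. It stood at 7.51 CPM (5.50 to 10.02) in WT-line ESCs, 11.6 CPM (9.06 to 14.6) in WT-line 48h-EpiLCs, 11.7 CPM (10.7 to 12.7) in KO-line ESCs, 12.2 CPM (11.3 to 13.1) in KO-line 48h-EpiLCs and 296 CPM (271 to 322) in Col1a2-high cells. The feeder level was 25.4-fold that of KO-line ESCs (22.4 to 28.7). The intervals of KO-line ESCs and of both 48h-EpiLC classes overlapped.

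H2-K1, a classical heavy chain, was 12.4 CPM (9.78 to 15.5) in WT-line ESCs, 26.00 CPM (24.5 to 27.6) in KO-line ESCs, 56.4 CPM (50.7 to 62.7) in WT-line 48h-EpiLCs, 78.4 CPM (65.8 to 92.7) in Col1a2-high cells and 80.4 CPM (78.1 to 82.7) in KO-line 48h-EpiLCs. The KO-line 48h-EpiLC level was thus 103% of the feeder level (86.5% to 123%). Each of the 4 pluripotent levels lay outside the counting interval of its neighbour.

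H2-D1, the other classical heavy chain measured, had a different order. It was 10.8 CPM (8.33 to 13.7) in WT-line ESCs, 18.97 CPM (15.7 to 22.7) in WT-line 48h-EpiLCs, 30.04 CPM (28.4 to 31.7) in KO-line ESCs, 41.2 CPM (39.5 to 42.8) in KO-line 48h-EpiLCs and 154 CPM (136 to 174) in Col1a2-high cells. KO-line ESCs thus stood above WT-line 48h-EpiLCs, which was not so for H2-K1. KO-line 48h-EpiLCs reached 26.6% of the feeder level (23.5% to 30.3%).

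H2-T23 encodes the nonclassical heavy chain Qa-1, which presents leader peptides of other class I chains to natural killer cells. Its level was 1.80 CPM (0.896 to 3.21) in WT-line ESCs, 4.50 CPM (2.99 to 6.51) in WT-line 48h-EpiLCs, 6.74 CPM (5.99 to 7.56) in KO-line ESCs and 8.84 CPM (8.10 to 9.63) in KO-line 48h-EpiLCs. In Col1a2-high cells it was 3.46 CPM from 6 UMIs (1.27 to 7.53 CPM), an interval that reaches all 4 other levels except that of KO-line 48h-EpiLCs. It was the only heavy chain of the 3 that was not higher in the feeder class than in KO-line ESCs.

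The genes that load peptides were low in ESCs and higher in 48h-EpiLCs of both lines. Tap1 was 1.80 CPM (0.896 to 3.21) in WT-line ESCs, 3.60 CPM (3.06 to 4.21) in KO-line ESCs, 9.49 CPM (7.22 to 12.2) in WT-line 48h-EpiLCs, 10.4 CPM (6.15 to 16.4) in Col1a2-high cells and 14.8 CPM (13.8 to 15.8) in KO-line 48h-EpiLCs. Tap2, its partner, was 0.490 CPM (0.101 to 1.43) in WT-line ESCs, 2.15 CPM (1.73 to 2.63) in KO-line ESCs, 5.14 CPM (3.52 to 7.26) in WT-line 48h-EpiLCs, 6.34 CPM (3.16 to 11.3) in Col1a2-high cells and 9.17 CPM (8.42 to 9.98) in KO-line 48h-EpiLCs, the first from 3 UMIs. Tapbp ranged less, with 8.49 CPM (6.34 to 11.1) in WT-line ESCs, 15.9 CPM (14.7 to 17.1) in KO-line ESCs, 17.3 CPM (11.7 to 24.7) in Col1a2-high cells, 17.8 CPM (14.7 to 21.5) in WT-line 48h-EpiLCs and 30.6 CPM (29.2 to 32.04) in KO-line 48h-EpiLCs. For Tap1, Tap2 and Tapbp the feeder interval included the level of WT-line 48h-EpiLCs.

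Of the immunoproteasome subunits, Psmb8 was nearly undetected in ESCs. It was 0.327 CPM (0.0395 to 1.18) in WT-line ESCs, 0.646 CPM (0.429 to 0.934) in KO-line ESCs, 3.46 CPM (1.27 to 7.53) in Col1a2-high cells, 9.65 CPM (7.36 to 12.4) in WT-line 48h-EpiLCs and 18.2 CPM (17.2 to 19.4) in KO-line 48h-EpiLCs, the first from 2 UMIs. Psmb9 was 1.63 CPM (0.783 to 3.00) in WT-line ESCs, 1.73 CPM (0.357 to 5.05) in Col1a2-high cells, 4.48 CPM (3.87 to 5.15) in KO-line ESCs, 8.20 CPM (6.11 to 10.8) in WT-line 48h-EpiLCs and 22.7 CPM (21.5 to 23.9) in KO-line 48h-EpiLCs, the second from 3 UMIs. Both subunits had their highest value in KO-line 48h-EpiLCs, whereas B2m and H2-D1 had theirs in the feeder class.

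Nlrc5, the class I transactivator, was barely detected. It gave 0 UMIs in WT-line ESCs, which allows up to 0.602 CPM (upper bound of the exact interval). There were 6 UMIs (0.138 CPM) in KO-line ESCs and 2 UMIs (1.15 CPM) in Col1a2-high cells. In 48h-EpiLCs it gave 1 UMI (0.161 CPM) in WT-line and 26 UMIs (0.439 CPM) in KO-line cells. The KO-line 48h-EpiLC value was 3.17-fold that of KO-line ESCs (1.28 to 9.41, counting error only), but in thinned cells the share with a UMI did not exceed that of Col1a1, a fibroblast gene, in any pluripotent class by more than counting error. No difference in Nlrc5 between pluripotent classes is read from these counts.

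The first comparison was between the stages, within each line. On the log2 scale of CPM + 1, all 10 members were higher in 48h-EpiLCs than in ESCs in both lines, with a median of 1.40 in WT-line and 1.25 in KO-line cells against 0.03 and -0.02 over all genes with a mean of at least 5 CPM. In the WT line 5 members passed 2-fold (H2-K1, Tap1, Tap2, Psmb8 and Psmb9), and in the KO line 5 passed (H2-K1, Tap1, Tap2, Psmb8 and Psmb9). Over all those genes 4.83% of 9233 were at least 2-fold higher and 4.62% at least 2-fold lower in the WT line, and 2.62% and 3.85% of 9460 in the KO line. Only 5 of the 10 members met the filter of 5 CPM in the WT line and 9 in the KO line, and the medians and counts of members include those below it. Nlrc5 was compared with 0 UMIs in WT-line ESCs, and the sign of B2m in the KO line turned under 2 other class rules (-0.33 and -0.09).

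Psmb8 differed most between the stages, at 29.5-fold in WT-line (7.83 to 250) and 28.2-fold in KO-line cells (19.4 to 42.7). Psmb9 was 5.02-fold (2.52 to 11.1) and 5.06-fold higher (4.35 to 5.91), Tap1 was 5.28-fold and 4.11-fold higher, and Tap2 was 10.5-fold (3.29 to 53.6) and 4.28-fold higher. H2-K1 was 4.55-fold higher in WT-line (3.54 to 5.91) and 3.09-fold in KO-line cells (2.90 to 3.30). Tapbp was 2.10-fold and 1.93-fold higher.

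The remaining class I chains differed less between stages than Tapbp or any other gene above, except H2-T23 in the WT line. H2-D1 was 1.76-fold higher in WT-line and 1.37-fold higher in KO-line 48h-EpiLCs, and H2-T23 was 2.51-fold (1.21 to 5.58) and 1.31-fold higher. Of the 28 H2-T23 UMIs in WT-line 48h-EpiLCs 10 came from 1 cell, so the 2.51-fold ratio rests in part on that cell. B2m was 1.54-fold higher in WT-line 48h-EpiLCs (1.05 to 2.28) and 1.05-fold in KO-line cells (0.93 to 1.18), an interval that includes no difference. Both stage comparisons set the same 2 libraries against each other. Over all kept cells below the Col1a2 threshold, which need no line marker, B2m was 13.0 CPM in 10965 ESCs and 12.1 CPM in 9400 48h-EpiLCs. In those cells H2-K1 was 22.1 and 72.4 CPM, H2-D1 24.5 and 32.1 CPM, Psmb8 0.551 and 14.8 CPM, and Psmb9 3.17 and 17.5 CPM.

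**Figure D2:**
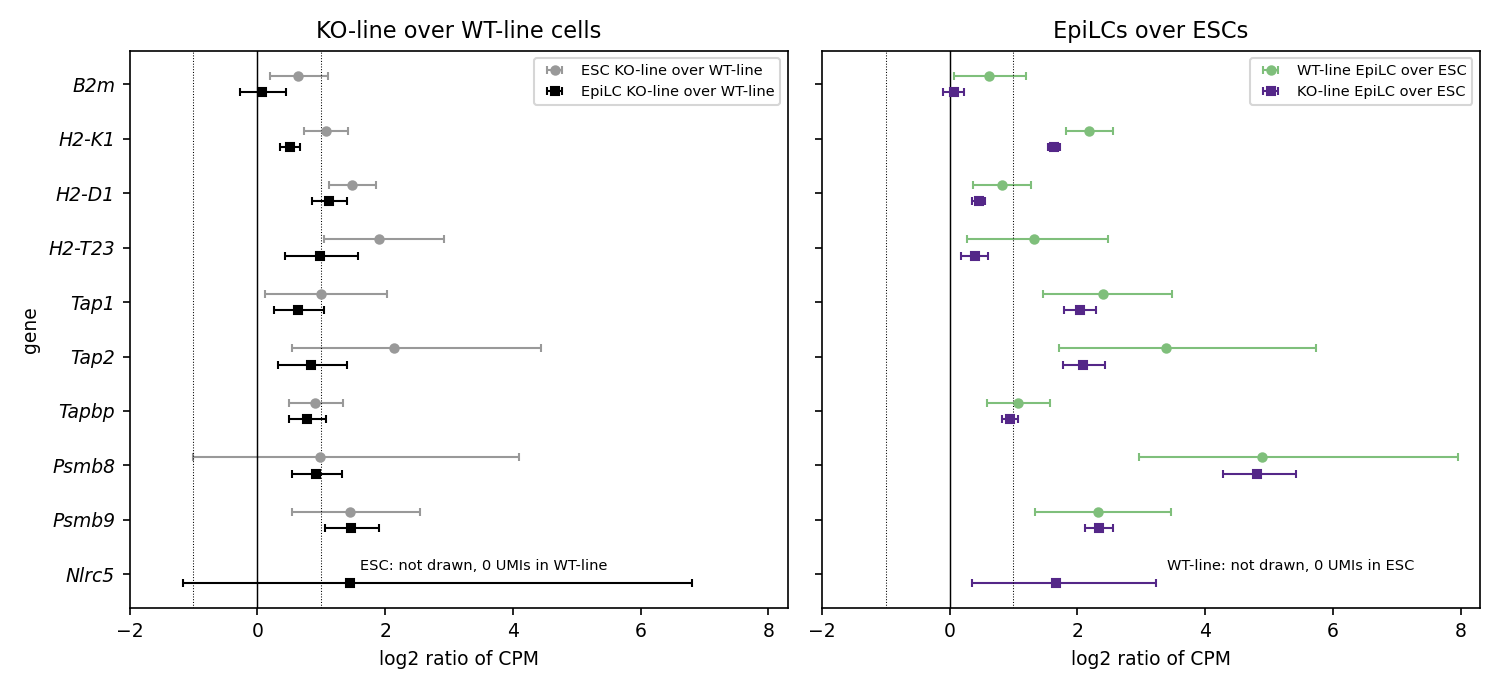
Log2 ratio of CPM for each member with its exact interval (95%, counting error only), KO-line over WT-line cells at left and 48h-EpiLCs over ESCs at right; dotted lines mark 2-fold. Every drawn ratio lies above 0, and Psmb8 reaches 4.88 and 4.82 between the stages. B2m lies near 0 in 48h-EpiLCs between the lines and in the KO line between the stages. The ratio has no added 1 CPM. Tap1, H2-T23, Tapbp and Nlrc5 thus pass a dotted line in comparisons where they did not pass on log2(CPM + 1).

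The B2m value in KO-line ESCs depended on cells with fibroblast transcripts. Of 2944 KO-line ESCs, 13 had at least 5 B2m UMIs, 11 of these 13 also had a UMI of Col1a2, Col1a1 or Col3a1, and the 13 cells held 16.4% of the 505 B2m UMIs of the class. In the 2738 KO-line ESCs without a UMI of these collagens B2m was 8.62 CPM (7.74 to 9.58), against 7.41 CPM (5.36 to 9.99) in the WT-line ESCs restricted in the same way. The stage difference of B2m in the KO line was then 0.47 on the log2 scale of CPM + 1 instead of 0.06. When the line rule was applied before the Col1a2 rule, the class had 2978 cells, B2m stood at 15.6 CPM and the same difference was -0.33. H2-K1 was 25.2 CPM and H2-D1 28.2 CPM in the KO-line ESCs without collagen UMIs.

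The second comparison was between the lines, within each stage. All 10 members had the higher value in KO-line cells at both stages, with a median log2 difference of 0.92 in ESCs and 0.74 in 48h-EpiLCs, against 0.12 and 0.07 over all genes with a mean of at least 5 CPM. In ESCs 5 members passed 2-fold (H2-K1, H2-D1, H2-T23, Tap2 and Psmb9), where 3.36% of 9254 genes were at least 2-fold higher and 1.46% at least 2-fold lower. In 48h-EpiLCs H2-D1 and Psmb9 passed, where 2.31% of 9385 genes were at least 2-fold higher and 0.938% lower. After thinning to 5000 UMIs per cell 2 members of the 10 were not higher in KO-line 48h-EpiLCs, B2m at -0.36 and Tap1 at -0.01 on the log2 scale of CPM + 1, and in ESCs Nlrc5 was at 0 in both lines. Scaling by the median of ratios shifted the log2 ratio of every gene in ESCs by -0.13, and H2-D1, H2-T23 and Tap2 then passed 2-fold. Of the 10 members, 4 met the 5 CPM filter in ESCs and 9 in 48h-EpiLCs.

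H2-D1 was 2.79-fold higher in KO-line ESCs (2.18 to 3.63) and 2.17-fold in 48h-EpiLCs (1.80 to 2.63). Psmb9 was 2.74-fold higher in ESCs (1.46 to 5.81) and 2.76-fold in 48h-EpiLCs (2.09 to 3.73). H2-T23 was 3.75-fold (2.07 to 7.60) and 1.96-fold higher (1.34 to 2.98), and H2-K1 was 2.10-fold and 1.42-fold higher. The 1.96-fold ratio includes 1 WT-line cell with 10 of 28 H2-T23 UMIs and 9 KO-line cells with 91 of 524. The intervals of these 4 genes, and those of Tap1, Tap2 and Tapbp, lay above 1 at both stages without thinning.

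Tapbp was 1.87-fold and 1.71-fold higher, Tap1 2.00-fold and 1.56-fold, and Tap2 4.38-fold (1.45 to 21.6) and 1.78-fold. Psmb8 was 1.89-fold higher in KO-line 48h-EpiLCs (1.46 to 2.50), while in ESCs its 1.98-fold ratio had an interval of 0.499 to 17.1. B2m was 1.55-fold higher in KO-line ESCs (1.15 to 2.15), but in line cells with 0 collagen UMIs its log2 difference of 0.57 became 0.19 and the intervals of the levels overlapped. In 48h-EpiLCs B2m was 1.05-fold higher (0.83 to 1.36), which is within counting error. Primitive endoderm transcripts were also higher in KO-line cells (given above), so the comparison was repeated without the cells that had any. In cells with 0 UMIs of both the collagens and the primitive endoderm genes the median line difference was 0.88 in ESCs and 0.82 in 48h-EpiLCs, and all 10 members were again higher in the KO line. Genotype, Y-linked transcripts and any other difference between the lines cannot be told apart.

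H2 genes are polymorphic and near copies of each other, and the reads were aligned to a single reference genome, so counts of H2-K1, H2-D1 and H2-T23 in cells of another haplotype may be split or lost. This was not tested.

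The third comparison was with the Col1a2-high cells. Relative to KO-line ESCs, 6 members were at least 2-fold higher (B2m, H2-K1, H2-D1, Tap1, Tap2 and Psmb8) and Psmb9 was at least 2-fold lower, with a median log2 difference of 1.26 against -0.12 over all genes. Among all 10037 genes with a mean of at least 5 CPM, 19.5% were at least 2-fold higher and 16.3% at least 2-fold lower. Of the 10 members 6 met that filter, and Tap2, Psmb8, Psmb9 and Nlrc5 did not. H2-D1 was 5.14-fold higher (4.49 to 5.87), H2-K1 3.01-fold (2.50 to 3.60), Tap1 2.88-fold and Tap2 2.95-fold. Tapbp differed by 1.09-fold (0.73 to 1.57), and the Psmb9 ratio of 0.386 rested on 3 feeder UMIs, with an interval of 0.079 to 1.15. Psmb8 was 5.35-fold higher from 6 feeder UMIs (1.81 to 13.2), and after thinning to 5000 UMIs per cell none was left, which turned its log2 difference to -0.75.

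The feeder class was not pure. Its pluripotency markers summed to 1768 CPM, against 4873 CPM in KO-line ESCs, and 2 of the 89 cells had a tdTomato UMI. At least 1 Y-linked UMI was seen in 51 of the 89. The sex of the feeder embryos is not given, so this count cannot tell KO-line transcripts from those of male fibroblasts. The cells fell on both sides of a gap, between 760 and 1294 CPM of these markers, with 54 below 1000 CPM at a median of 13797.5 UMIs and 35 above at a median of 26529 UMIs. In the 54 cells B2m was 417 CPM (374 to 463), H2-D1 206 CPM and H2-K1 89.7 CPM, all higher than in the whole class. Psmb9 gave 0 UMIs in the 54 cells, which allows up to 4.47 CPM, and Tapbp was 20.6 CPM.

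**Figure D3:**
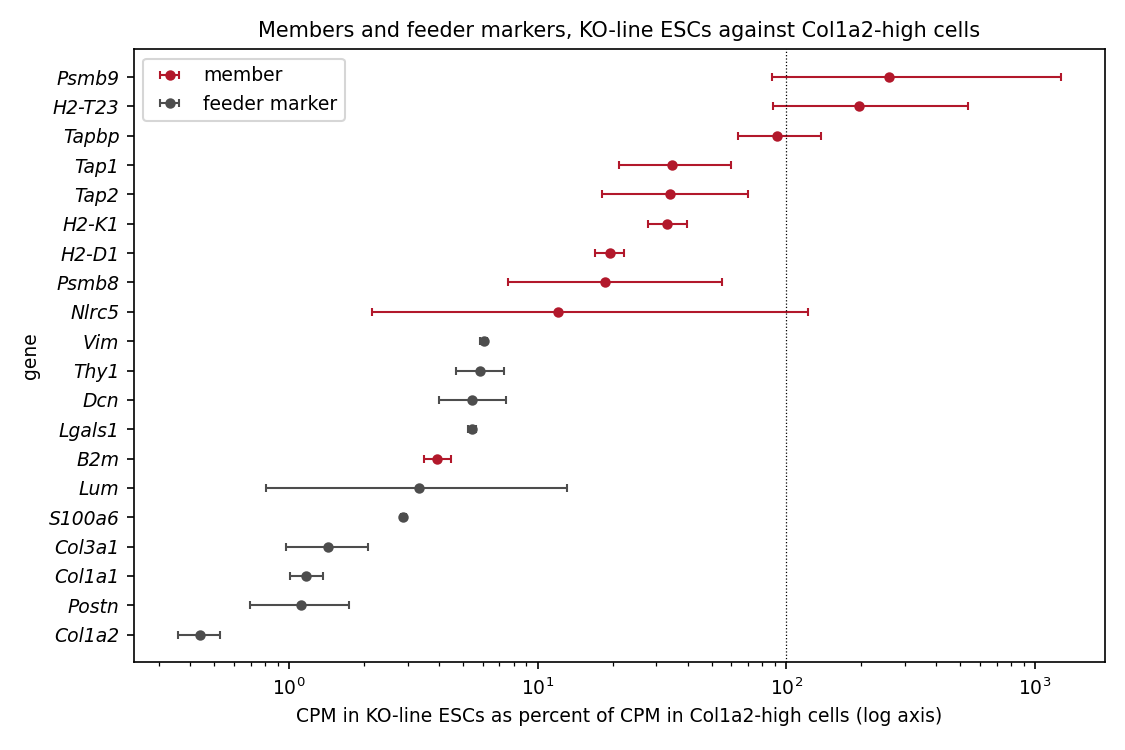
CPM in KO-line ESCs as a percentage of CPM in Col1a2-high cells, on a log axis, for the 10 members and 10 fibroblast markers, with exact intervals (95%). B2m (3.94%) lies among the 9 fibroblast markers that the class rule did not use (1.12% to 6.06%), while the other members lie between 12.0% and 259%; the value of Col1a2 (0.436%) was set by the rule.

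In KO-line ESCs 9 fibroblast markers stood between 1.12% (Postn) and 6.06% (Vim) of their feeder level. Col1a2, at 0.436%, is left out of this range because the class rule fixed its value. B2m stood at 3.94% (3.48% to 4.47%), inside that range. H2-D1 stood at 19.5% (17.0% to 22.3%), H2-K1 at 33.2% (27.8% to 39.9%), Tapbp at 91.8%, H2-T23 at 195% and Psmb9 at 259%, above these markers. Vim, Thy1 and Lgals1 are also transcribed by other cells. In WT-line ESCs B2m was at 2.54%, H2-D1 at 6.98% and H2-K1 at 15.8% of the feeder level.

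The genes nearest to B2m over the 5 classes, by Euclidean distance of class-centred log2(CPM + 1) among 7316 genes, were Smoc2, Ets1, Ghr, Col6a2 and Colec12. All 5 were high in Col1a2-high cells only, for example Colec12 with 115 CPM there and between 3.75 and 5.51 CPM elsewhere. H2-D1 ranked 428 and H2-K1 1580 in that order, and Psmb9 ranked 7171. With 5 classes from 2 libraries this is a description of the pattern.

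In single cells the transcripts were sparse. After thinning every cell to 5000 UMIs, H2-K1 was seen in 6.0% of WT-line and 12.6% of KO-line ESCs and in 25.9% and 31.3% of 48h-EpiLCs, against 29.5% of Col1a2-high cells. H2-D1 was seen in 4.85%, 14.1%, 7.36%, 18.1% and 54.5% of the same classes, and B2m in 2.08%, 4.69%, 7.36%, 5.36% and 73.9%. Without thinning, H2-K1 was seen in 15.4%, 27.9%, 58.2%, 68.8% and 70.8%, and B2m in 9.91%, 12.1%, 17.9%, 20.99% and 97.8%. Thinning kept 433 of 434 WT-line and 2921 of 2944 KO-line ESCs, 367 of 368 WT-line and 2968 of 2977 KO-line 48h-EpiLCs, and 88 of 89 Col1a2-high cells. For comparison, Col1a1, which pluripotent cells should lack, was seen in 0.924% of WT-line and 1.81% of KO-line ESCs and in 0.272% and 0.674% of 48h-EpiLCs. The shares of H2-T23, Tap1, Tap2, Psmb8 and Psmb9 in WT-line ESCs (at most 0.693%) did not exceed those of Col1a1 by more than counting error. The same held for Tap1, Tap2, Psmb8 and Psmb9 in KO-line ESCs (at most 2.26%) and for Nlrc5 in all 4 pluripotent classes. In Col1a2-high cells Col1a1 was 431 CPM and Psmb9 1.73 CPM, against 4.48 CPM of Psmb9 in KO-line ESCs. The Col1a1 share is thus no measure of background for the members, and the source of their UMIs was not tested.

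**Figure D4:**
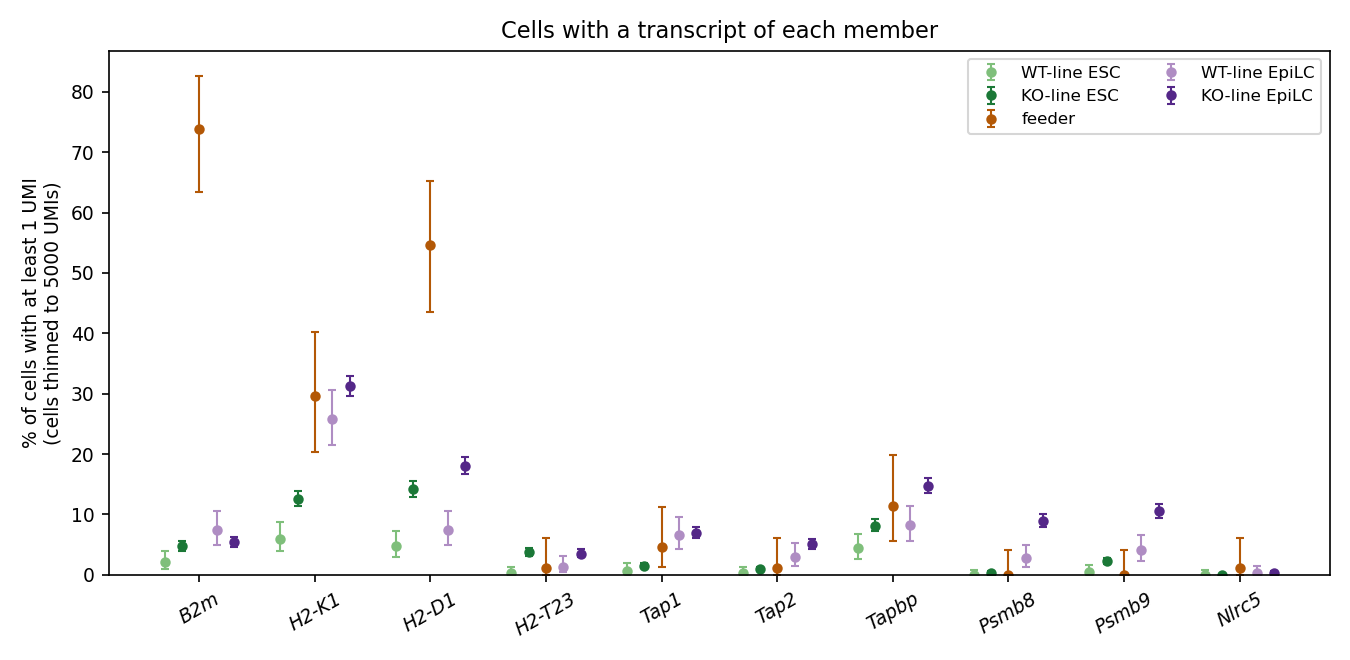
Percentage of cells with at least 1 UMI of each member after thinning to 5000 UMIs per cell, with exact binomial intervals (95%), in the 5 classes. B2m is seen in 73.9% of the feeder class and in at most 7.36% of the others, and H2-K1 in 31.3% of KO-line 48h-EpiLCs.

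No thinned WT-line ESC had transcripts of more than 2 members, and 81.8% had none. The share without any was 61.3% in KO-line ESCs, 47.7% and 34.4% in WT-line and KO-line 48h-EpiLCs and 9.09% in Col1a2-high cells. At least 5 members were seen together in 1.14% of 88 Col1a2-high cells, in 0.472% of 2968 KO-line 48h-EpiLCs and in no ESC or WT-line 48h-EpiLC. The WT-line 48h-EpiLCs were only 367 thinned cells, so no line difference is read from this. H2-K1 or H2-D1 was seen with B2m in 52.3% of Col1a2-high cells and in 2.46% of KO-line 48h-EpiLCs. One of these heavy chains was seen in 65.9% and 42.2% of these classes, and B2m in 73.9% and 5.36%. The share seen together cannot exceed that of B2m, so the contrast largely restates the B2m shares.

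A few cells held much of some members. H2-T23 reached 28 UMIs in 1 KO-line 48h-EpiLC, and 9 of 2977 cells with at least 5 UMIs held 17.4% of its 524 UMIs. In WT-line 48h-EpiLCs 1 cell held 10 of its 28 UMIs. For H2-K1, 198 KO-line 48h-EpiLCs with at least 5 UMIs held 27.3% of its UMIs, of which 5 had a collagen UMI. The 13 such cells for Psmb8 held 6.84% of its UMIs and none had a collagen UMI.

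Other genes of the pathway were described from lists of the same kind. Counts over a list include its genes below the 5 CPM filter, whereas the shares over all genes given above do not. For the stages these shares were 4.83% higher and 4.62% lower in the WT line, and 2.62% and 3.85% in the KO line. For the lines they were 3.36% higher and 1.46% lower in KO-line ESCs, and 2.31% and 0.938% in KO-line 48h-EpiLCs. Of 16 other class I genes, 5 were at least 2-fold higher and 2 lower in WT-line 48h-EpiLCs than in ESCs. In the KO line 2 were higher and 1 lower. Only 1 of the 16 met the 5 CPM filter in the WT line, and 4 did in the KO line. The 1 was H2-M5, which was lower, so none of the 5 higher genes met it. Between the lines 4 of 16 were at least 2-fold higher in KO-line ESCs and 2 in KO-line 48h-EpiLCs, and 0 lower. At each stage 3 of the 16 met the filter. H2-M5 went against most members, with 44.2 and 25.1 CPM in WT-line and KO-line ESCs and 2.09 and 3.39 CPM in 48h-EpiLCs. H2-Q4, chosen after its values were seen, was 1.63 and 10.8 CPM in WT-line and KO-line ESCs and 5.95 and 17.9 CPM in 48h-EpiLCs. Read sharing between these copies applies to both genes.

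Among 11 genes of peptide loading and trimming, which include the chaperones Calr, Canx and Pdia3, none differed 2-fold between the lines at either stage. Between the stages 1 of 11 was at least 2-fold higher in each line. This was the trimming peptidase Erap1, named after its values were seen, with 0.490 and 0.992 CPM in ESCs and 4.82 and 6.41 CPM in 48h-EpiLCs. Npepps, a cytosolic aminopeptidase, was 105 and 78.1 CPM in ESCs and 68.0 and 56.7 CPM in 48h-EpiLCs.

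Of 20 other proteasome subunit, assembly and activator genes, 2 were at least 2-fold higher and 0 lower in 48h-EpiLCs in each line, and both encode subunits of the PA28 activator. Between the lines only Psme2 passed 2-fold, in ESCs. Psme2 was 27.6 and 64.3 CPM in ESCs and 110 and 185 CPM in 48h-EpiLCs, and Psme1 was 46.0 and 61.6 CPM and then 116 and 150 CPM. Psmb10, the third inducible catalytic subunit, was 73.3 and 98.1 CPM in ESCs and 111 and 187 CPM in 48h-EpiLCs. The median stage difference of the 20 genes was 0.32 in the WT line and 0.35 in the KO line. Psmb8 and Psmb9 thus differed between stages by more than any of these 20 genes on the same scale in the KO line, whereas in the WT line Psme2 (1.96) exceeded Psmb9 (1.81).

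**Figure D5:**
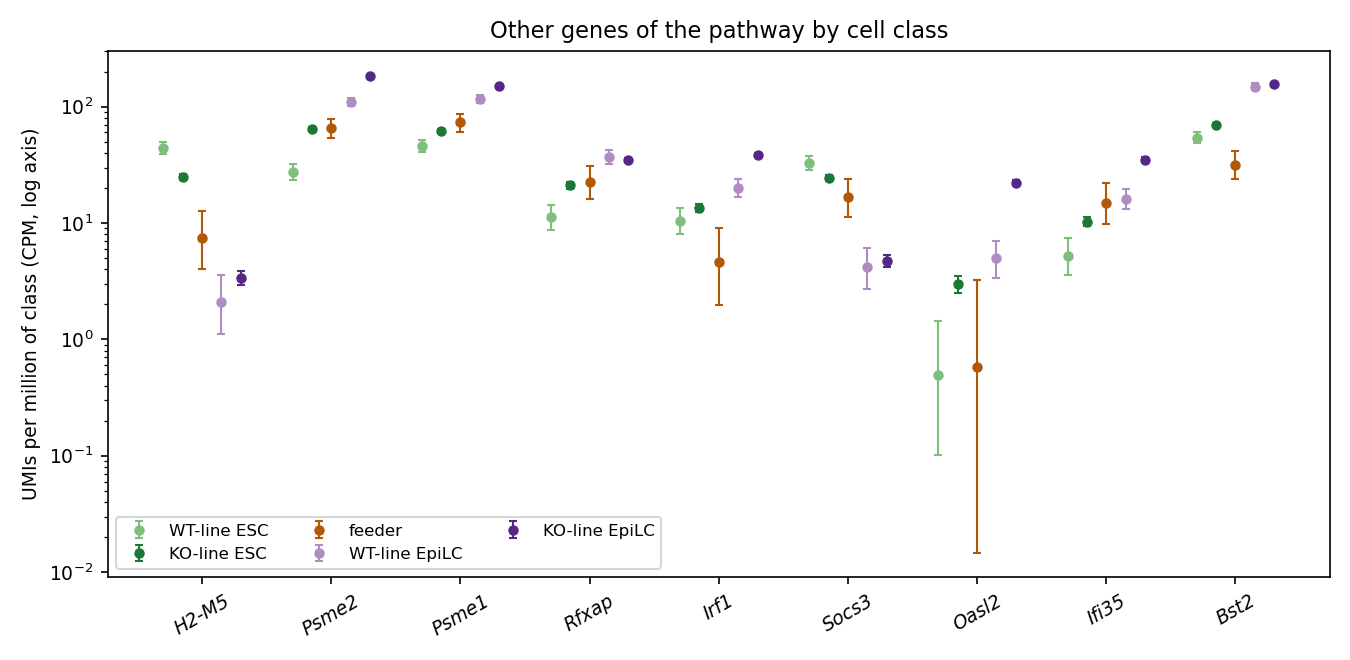
Level in the 5 classes, in CPM on a log axis with exact Poisson intervals (95%), of genes of the related lists that were named by size and differed at least 2-fold in a line or stage comparison. Psme1, Psme2, Irf1, Oasl2, Ifi35 and Bst2 are higher in 48h-EpiLCs of both lines, and H2-M5 and Socs3 are lower.

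Of 17 regulators of class I transcription, 1 was at least 2-fold higher in 48h-EpiLCs in the WT line (Rfxap), and in the KO line 1 was higher (Irf1) and 1 lower. The median stage difference of the 17 was 0.35 in the WT line and -0.08 in the KO line, where 7 of 17 were above 0. Irf1, an interferon-induced activator, was 10.4 and 13.4 CPM in ESCs and 20.1 and 38.2 CPM in 48h-EpiLCs, and 4.61 CPM in Col1a2-high cells. Rfxap, a subunit of the X-box factor RFX, was 11.3 and 21.1 CPM in ESCs and 37.0 and 34.7 CPM in 48h-EpiLCs.

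Of 18 interferon-stimulated genes, 9 were at least 2-fold higher and 1 lower in WT-line 48h-EpiLCs than in ESCs, and 9 were higher and 0 lower in the KO line. The lower one, Parp14, is named after its values were seen. Of the 18, 4 met the 5 CPM filter in the WT line and 8 in the KO line. In WT-line ESCs 6 of the 18 were at 0, among them Ifit3 and Irf7. Bst2, a membrane protein that tethers viruses, was 54.0 and 69.6 CPM in ESCs and 149 and 158 CPM in 48h-EpiLCs. Oasl2 was 0.490 and 2.98 CPM in ESCs and 4.98 and 22.3 CPM in 48h-EpiLCs. Between the lines 2 of 18 passed 2-fold in ESCs and 5 in 48h-EpiLCs, all higher in the KO line, among them Ifi35 with 16.1 and 35.1 CPM in WT-line and KO-line 48h-EpiLCs. Ifitm3, which is high in many cells, was 214 and 210 CPM in ESCs and 173 and 239 CPM in 48h-EpiLCs.

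Of 9 interferon receptor and kinase genes, 5 were at least 2-fold higher and 1 (Socs1) lower in Col1a2-high cells than in KO-line ESCs, where 19.5% of all genes were higher and 16.3% lower. The interferon-gamma receptor chain Ifngr2 was 47.8 CPM there and between 2.94 and 3.54 CPM in the pluripotent classes. Between the stages 1 of the 9 was at least 2-fold higher and 1 lower in each line. The interferon-gamma receptor chain Ifngr1 was higher, at 3.43 and 2.38 CPM in ESCs and 8.68 and 6.51 CPM in 48h-EpiLCs. Socs3, an inhibitor of cytokine signalling, was lower, at 33.0 and 24.2 CPM in ESCs and 4.18 and 4.69 CPM in 48h-EpiLCs. The class II genes, which present peptides in professional antigen-presenting cells, summed to 14.4 and 30.02 CPM in ESCs and 15.8 and 20.9 CPM in 48h-EpiLCs, and none of the 6 differed 2-fold between the stages in either line. Between the lines 3 of 6 were at least 2-fold higher in KO-line ESCs and 0 in 48h-EpiLCs. They were Cd74, H2-Eb1 and H2-DMb1, named after their values were seen, and 1 of the 6 met the 5 CPM filter. The 5 measured ligands of natural killer receptors summed to at most 11.5 CPM in any class.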

How the data were processed

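The 2 droplet libraries of mixed WT and Cnot8 KO cells were 1 per stage. The deposited values were counts of UMIs per gene and barcode, produced by the authors in Cell Ranger (version 3.0.2) on mm10 with the tdTomato coding sequence added. The submitters' notes also name Seurat (version 4). Counts were used as deposited, with 144584246 UMIs in 13184 barcodes (ESCs) and 163771168 UMIs in 12427 barcodes (48h-EpiLCs), and no correction for free RNA.

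Cells with at least 1000 genes and at most 10% of UMIs from mitochondrial genes were kept and classed by tdTomato, Y-linked and Col1a2 UMIs. UMIs were summed per class and divided by the class total (CPM). A member was counted as different at 2-fold on log2(CPM + 1). Background shares are over genes whose mean over the 2 classes compared was at least 5 CPM. CPM carried exact Poisson intervals, ratios exact binomial intervals conditional on the summed count, and shares of cells exact (Clopper-Pearson) intervals, all at 95%. A count of 0 was given the upper bound of its exact interval. Cells are not replicates, so no p-value was computed. Doublets were kept. The class rule sets apart cells with both tdTomato and Y-linked UMIs but not other doublets, such as those of a feeder and a KO-line cell, and removal of the top 10% of Scrublet-like scores was an alternative.

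The named genes were the 10 members, up to 4 genes per list and comparison with the largest difference among those at 20 CPM or more in one class, the 5 genes nearest to B2m, and class markers. A result for 1 listed gene is not reported here. The members and lists were chosen with earlier results of these data known. Of the lists, H2-T10 and Raet1a, Raet1b and Raet1c had no row. Positions came from GENCODE M21 (GRCm38), in which 32158 features (99.6%) were found by identifier. Scaling by TMM used edgeR (version 4.0.16), and other steps used Python (version 3.11.15), numpy (2.4.6), scipy (1.17.1), pandas (2.3.3) and scikit-learn (1.9.0). The estimators were tested on simulated data.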

Additional observations from a re-analysis of the deposited data

How the results depend on the processing

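The median difference over the 10 members kept its sign in all 5 comparisons under each alternative, which were other scalings, stricter cell and class rules, doublet removal, thinning to 5000 UMIs and another pseudocount. The count of members at least 2-fold different was less stable. For the KO line over the WT line in ESCs, the count of 5 became 3 with TMM scaling, with median-of-ratios scaling, with WT-line cells taken whatever their Y-linked UMIs, with a Col1a2 threshold of 10 UMIs, and in cells with 0 primitive endoderm UMIs (added after the data had been seen). In 48h-EpiLCs the count of 2 became 1 with WT-line cells taken whatever their Y-linked UMIs and 4 after thinning. For WT-line 48h-EpiLCs over ESCs, the count of 5 became 8 with a pseudocount of 0.1 CPM. The share of all genes that differed 2-fold between the lines was 4.82% in ESCs and 3.25% in 48h-EpiLCs, and 3.14% and 2.13% with WT-line cells taken whatever their Y-linked UMIs. B2m in the KO line over stages was -0.33 with the line rule applied first and -0.09 with the Col1a2 threshold of 10. Psmb8 in the feeder class over KO-line ESCs changed sign after thinning, to -0.75, where no Psmb8 UMI was left in the feeder class. Of the values of single members and shares of genes under alternatives, 804 stayed within counting error or within 1.5 times and 25 did not. Another 1 that had passed 2-fold, Psmb8 as given, changed sign. Nlrc5 against WT-line ESCs, where it had 0 UMIs, had an interval without bounds and so counted among the 804 under every alternative. The alternatives also share most of their cells, so the tally is no independent check. Doublet removal took 20.2% of the feeder class, 15.9% of KO-line and 7.60% of WT-line ESCs, after which the median line difference was 1.02 in ESCs and 0.82 in 48h-EpiLCs. No paired analysis was possible because each group is a single library. Depth limits Nlrc5, and Tap2 and Psmb8 in WT-line ESCs.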
